A study of Homo sapiens with 60 samples.

Results

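The genes described here are 10 genes of the secretory lineage of the intestinal epithelium, measured by RNA sequencing in HT29 cells, an established human colorectal adenocarcinoma line. They were chosen by name as lineage factors and goblet cell products other than mucins. All 10 were found by their Ensembl identifiers among the 60675 genes of the deposited count table. The factors are ATOH1, SPDEF and CREB3L1, the proteins of the goblet cell's membranes and secretory granules are BCAS1 and SYTL2, and the secreted or secretory pathway products are REG4, TFF1, TFF3, AGR2 and FCGBP.

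In the intestine, goblet cells make and release the mucus that covers the epithelium. The transcription factor ATOH1 commits a progenitor to the secretory lineage, and Notch signalling from neighbouring cells represses ATOH1 and directs cells to the absorptive lineage. SPDEF acts later and promotes goblet cell maturation, and the mature cell releases mucins with trefoil peptides, lectins and other mucus proteins. HT29 cells are colon cancer cells in which some cells can take on mucus-secreting features.

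The series holds 60 libraries in 25 groups, all of HT29 cells exposed for 24 h. The vehicle group had 3 libraries and received DMSO alone. Yijin-tang and Soshiho-tang, water extracts of several herbs, and ethanol extracts of 4 single herbs (Schisandrae Fructus, Zizyphi Semen, Longan Arillus and Liriopis seu Ophiopogonis Tuber) were each given at 500 (high), 100 (medium) and 20 (low) µg/mL, with 3 libraries per dose (2 for Soshiho-tang). The ethanol extract of Aucklandiae Radix was given at 370, 74 and 14.8 µg/mL and that of Polygalae Radix at 380, 76 and 15.2 µg/mL, with 1 library per dose. The labels do not say whether replicates came from separate cultures, so p-values measure only the spread between these libraries, which may be technical.

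The totals ran from 18161673 to 35128923 rounded counts per library. The library names carry a set prefix, whose meaning the labels do not give: the vehicle libraries form a set of their own, and the extracts fall into 4 other sets of 2 extracts each. Set and extract cannot be told apart in a comparison with the vehicle, and all such comparisons share the same 3 vehicle libraries, whereas the dose comparisons and those between 2 extracts of a set lie within a set. All 10 colon epithelium markers examined were expressed. Of 16 other goblet cell products, 9 (CLCA1, ZG16, RETNLB, ITLN1, ITLN2, SPINK4, B3GNT6, REP15 and BEST2) stayed under 1 CPM (counts scaled to library size) in every library, so the data hold only part of a goblet cell's programme. In bulk RNA, fewer cells of a type and less RNA per cell cannot be told apart.

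A pair of libraries stood apart from the rest. In replicate 2 of low-dose Yijin-tang, ribosomal protein genes took 10.7% of counts, against at most 5.52% in the other 59. That library also held the highest levels of TFF3, at 13.7 CPM, of AGR2, at 354 CPM, and of REG4, at 31.7 CPM. Its SYTL2 was the lowest of any library, at 18.7 CPM against 41.2 to 45.3 CPM in the vehicle. The sum of 10 mucins was also lowest there, at 161 CPM against 366 to 546 CPM in the vehicle. In replicate 3 of high-dose Soshiho-tang, 10 blood and leukocyte markers summed to 36.7 CPM, against 2.98 CPM in replicate 2 of that group, 4.08 to 5.46 CPM in the vehicle and at most 5.49 CPM in any other library. Results that rest on these libraries are given with and without them, and their part in other results was not tested.

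The start of each gene could be set beside its expression for 6 of the 10 genes that had an entry in the RefSeq promoter table (GRCh38.p14). The windows printed are those of ATOH1, SPDEF and FCGBP, since ATOH1 and FCGBP were low and SPDEF high in some of the high-dose libraries described below. Each is the 250 bases before the start of the RefSeq entry, 5′ to 3′ on the gene's strand. Capitals mark any match to GCGTG, the core of the element bound by the aryl hydrocarbon receptor, on either strand. ATOH1 lies at chr4:93828503-93828752 on the plus strand, SPDEF at chr6:34556330-34556579 on the minus strand and FCGBP at chr19:39934635-39934884 on the minus strand.
ATOH1: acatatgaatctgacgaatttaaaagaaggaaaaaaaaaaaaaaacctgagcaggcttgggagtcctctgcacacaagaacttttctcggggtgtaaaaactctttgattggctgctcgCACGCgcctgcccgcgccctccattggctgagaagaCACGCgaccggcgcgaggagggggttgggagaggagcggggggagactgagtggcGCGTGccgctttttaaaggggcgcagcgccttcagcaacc
SPDEF: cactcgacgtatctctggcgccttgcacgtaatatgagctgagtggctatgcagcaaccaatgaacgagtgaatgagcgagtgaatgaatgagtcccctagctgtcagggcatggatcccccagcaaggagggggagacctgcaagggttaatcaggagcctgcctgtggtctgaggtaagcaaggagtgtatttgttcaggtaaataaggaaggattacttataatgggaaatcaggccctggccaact
FCGBP: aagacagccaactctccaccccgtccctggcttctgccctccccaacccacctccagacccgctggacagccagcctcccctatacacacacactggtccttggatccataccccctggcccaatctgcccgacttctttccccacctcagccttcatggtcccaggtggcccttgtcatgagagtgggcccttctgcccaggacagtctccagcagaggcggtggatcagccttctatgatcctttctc

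The search covered both strands for 4 motifs, and no match overlapped another. ATOH1 held GCGTG 3 times, at 131 and 95 bases before the start on the opposite strand and at 40 bases on the gene's own strand. That motif occurs 1 or more times in 32.2% of 35116 RefSeq promoters of this length, and the share with 3 matches was not counted. The E-box core searched was CAGCTG, found in 14.0% of all promoters and, among the 6 genes, before AGR2. RefSeq starts need not match the gene spans given below. The windows of AGR2 (chr7:16805000-16805249) and CREB3L1 (chr11:46294909-46295158) lie inside those spans, and that of REG4 lies partly inside. The core of the cyclic AMP response element searched was TGACGT, found in 7.10% of all promoters and before none of the 6 genes. The letters TATAAA were found in 10.7% of all promoters and, among the 6 genes, before REG4. The windows of SPDEF, FCGBP and CREB3L1 held none of the motifs. GC content was 55.2% for ATOH1, 50.8% for SPDEF and 60.8% for FCGBP, against a median of 58.0% over all promoters. A match is a description of the letters and says nothing about binding.

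In the vehicle, the genes differed greatly in level. Scaled by gene length, AGR2 (ENSG00000106541, chr7:16791811-16833433 in GRCh38), which encodes a protein disulphide isomerase of the endoplasmic reticulum needed for mucin production, was highest at 73.2 CPM per kb, and CREB3L1 (ENSG00000157613, chr11:46277661-46321422) followed at 49.5 CPM per kb. SPDEF stood at 16.9, BCAS1 at 8.53 and REG4 at 6.97 CPM per kb. The lowest were SYTL2 at 3.83, TFF3 at 3.63, ATOH1 at 1.68, FCGBP at 1.17 and TFF1 at 0.898 CPM per kb. TFF1 (ENSG00000160182, chr21:42362282-42366594), a trefoil peptide of mucus, had a median of 12 counts per library, so its ratios are poorly determined.

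**Figure D1:**
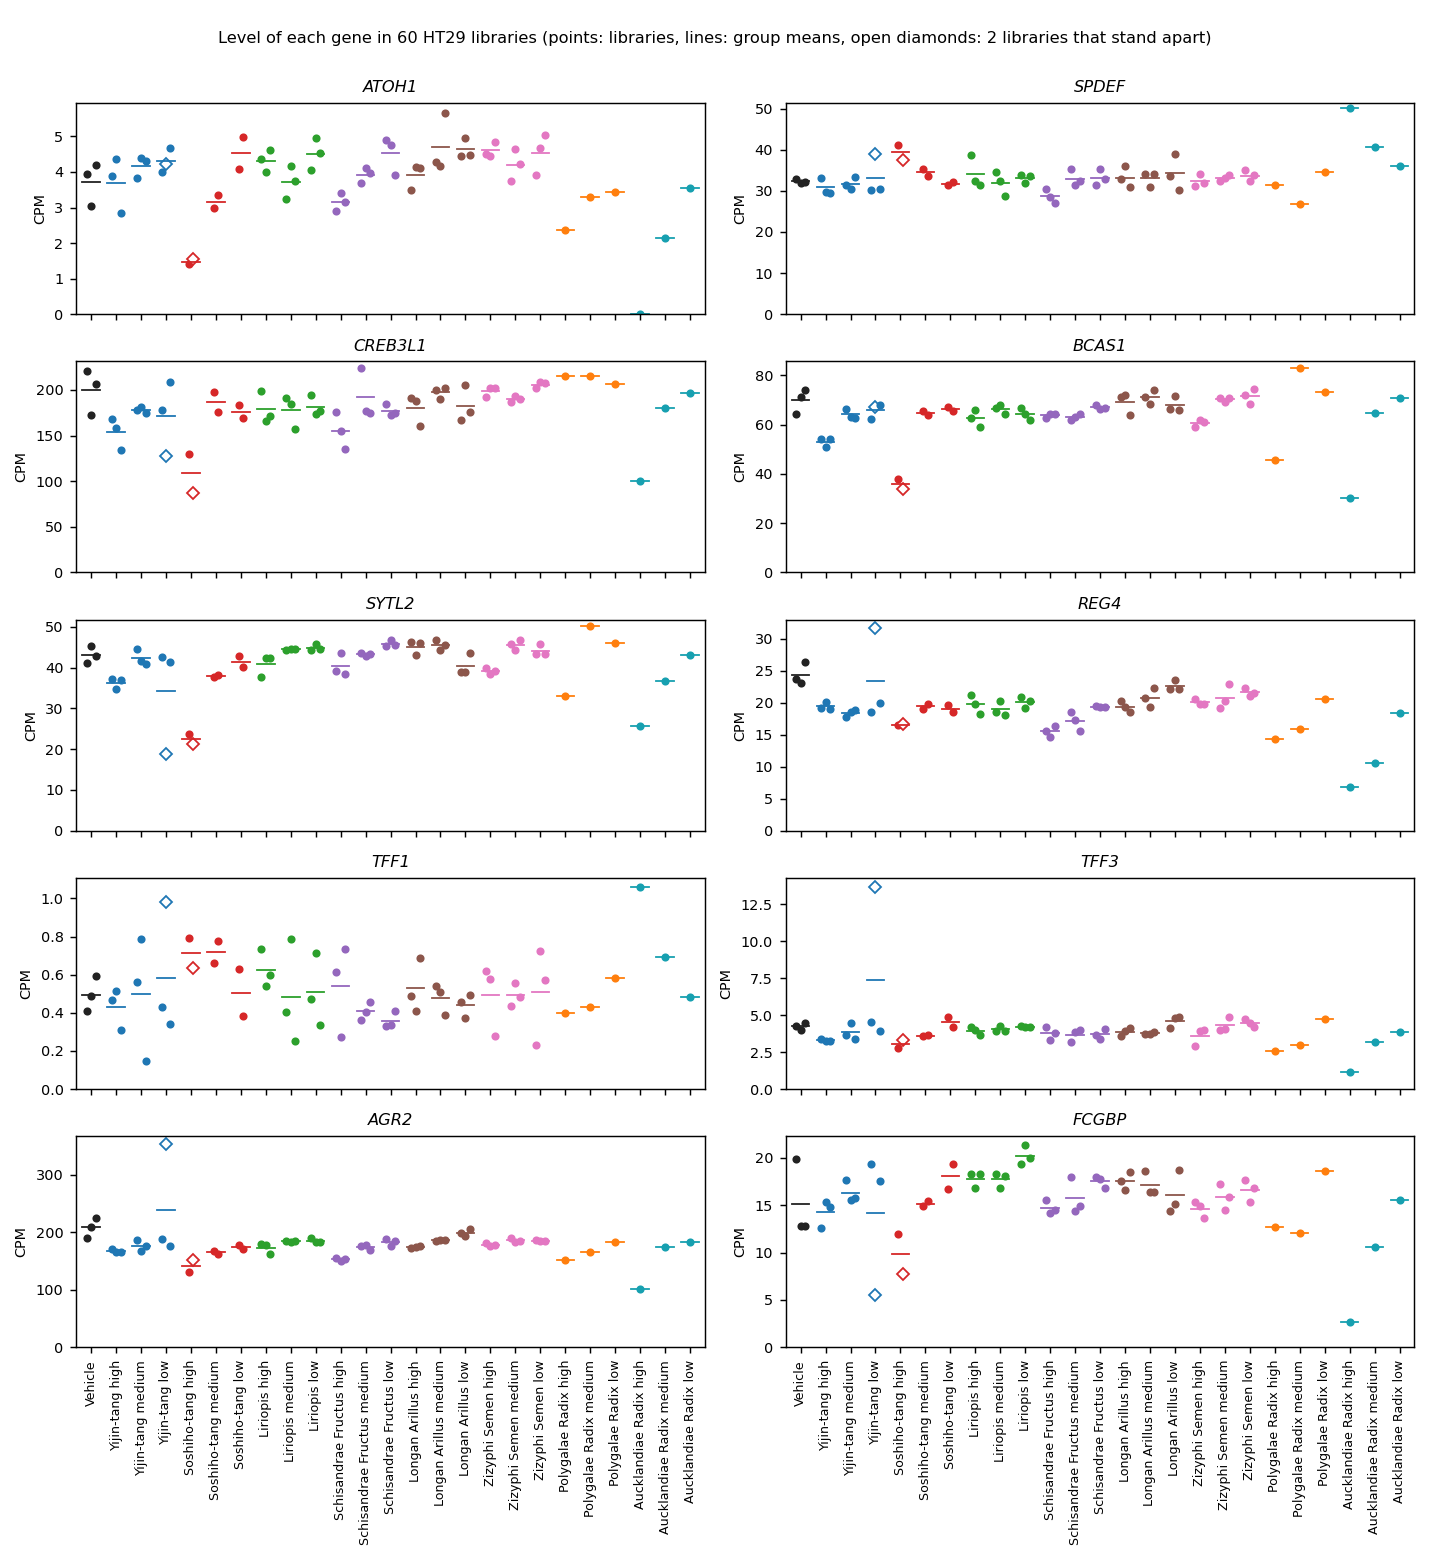
CPM of each gene in each of the 60 libraries on a linear axis, grouped by extract and dose, with 1 point per library. ATOH1 had 0 counts in high-dose Aucklandiae Radix. High-dose Soshiho-tang sits low for ATOH1, BCAS1 and SYTL2, and REG4 is below the vehicle range in 55 of 57 extract libraries.

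Among the groups with replicates, high-dose Soshiho-tang had the most of these genes called against the vehicle. Against the vehicle, 6 of the 10 fell in edgeR's quasi-likelihood test with Benjamini-Hochberg adjustment over 16890 genes, and none rose. Over all genes tested, 7.93% were called in this comparison, 3.76% lower and 4.17% higher. The median log2 difference of the 10 genes was -0.61, against -0.00035 over all genes.

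ATOH1 (ENSG00000172238, chr4:93828753-93830964, plus strand), the basic helix-loop-helix factor that starts secretory differentiation, was at 1.40 and 1.55 CPM with high-dose Soshiho-tang and at 3.94, 3.03 and 4.21 CPM in the vehicle. Both treated libraries lay below all vehicle libraries. ATOH1 fell 2.51-fold (log2 difference -1.33 ± 0.17 (SE), edgeR adjusted p = 3.69e-07). At the medium dose ATOH1 was at 2.98 and 3.35 CPM and at the low dose at 4.09 and 4.99 CPM, with levels decreasing from the low to the high dose. High against low, within one library set, ATOH1 fell 3.05-fold (log2 difference -1.61 ± 0.18, edgeR adjusted p = 2.70e-08).

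BCAS1 (ENSG00000064787, chr20:53936777-54070594, minus strand) encodes a protein found in goblet cells and in some cancers. It overlaps a noncoding gene on the opposite strand and a microRNA on its own. BCAS1 was at 37.9 and 33.9 CPM with high-dose Soshiho-tang, below the 64.3, 71.2 and 73.9 CPM of the vehicle. The fall was 1.95-fold (log2 difference -0.96 ± 0.06, edgeR adjusted p = 1.68e-15). At 65.5 and 63.8 CPM with the medium dose and at 67.0 and 65.7 CPM with the low dose, BCAS1 was near or inside the vehicle's range.

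SYTL2 (ENSG00000137501, chr11:85694224-85811159, minus strand), which encodes a Rab27 effector that docks secretory granules at the plasma membrane, followed the same course. Its levels were 23.8 and 21.2 CPM with high-dose Soshiho-tang, and 41.2, 45.3 and 42.7 CPM in the vehicle, with no overlap. SYTL2 fell 1.92-fold (log2 difference -0.94 ± 0.15, edgeR adjusted p = 1.11e-05). The medium dose, at 37.6 and 38.3 CPM, was below the vehicle and the low dose, at 42.8 and 40.1 CPM, was close to it.

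CREB3L1, a membrane-bound transcription factor of the secretory pathway, was at 130 and 87.3 CPM with high-dose Soshiho-tang and at 221, 173 and 207 CPM in the vehicle. The lower of the treated values belongs to replicate 3, the library that stands apart. CREB3L1 fell 1.84-fold (log2 difference -0.88 ± 0.15, edgeR adjusted p = 3.61e-05); without the pair of libraries that stand apart, the log2 difference was -0.62 with an edgeR adjusted p of 0.00195. That fit leaves high-dose Soshiho-tang with 1 library, whose spread is taken from the other groups.

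Of the secreted products, REG4 (ENSG00000134193, chr1:119794018-119811660, minus strand), a lectin of goblet and endocrine cells, fell 1.47-fold (edgeR adjusted p = 0.000861), with 16.5 and 16.7 CPM against 23.6, 23.0 and 26.3 CPM in the vehicle. AGR2 fell 1.48-fold (log2 difference -0.56 ± 0.13, edgeR adjusted p = 0.00329), with 131 and 151 CPM against 190, 209 and 225 CPM. The groups did not overlap for either gene. Without high-dose replicate 2, the adjusted p of AGR2 was 0.093.

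The other 4 genes were not called in this comparison. SPDEF (ENSG00000124664, chr6:34537802-34556333, minus strand), the factor of goblet cell maturation, was at 41.3 and 37.4 CPM with the high dose, above the 33.0, 31.9 and 32.1 CPM of the vehicle. The log2 difference was 0.28 ± 0.10 with an edgeR adjusted p of 0.0623; it was 0.0164 without the pair of libraries that stand apart, 0.0411 with the replicate block and 0.0424 by DESeq2, so the call depends on the setting. TFF3 (ENSG00000160180, chr21:42311667-42315651), the main trefoil peptide of intestinal goblet cells, was at 2.80 and 3.29 CPM against 4.28, 4.00 and 4.45 CPM. Its log2 difference was -0.47 ± 0.26 (edgeR adjusted p = 0.344). FCGBP (ENSG00000275395, chr19:39863323-39934626), a large protein of the mucus layer, had a log2 difference of -0.65 ± 0.23 (edgeR adjusted p = 0.0843). It was -0.34 (0.196) without the pair of libraries that stand apart, -0.98 (0.0396) without high-dose replicate 2, and called with no filter on low counts (0.0245). TFF1 had a log2 difference of 0.51 ± 0.43 (edgeR adjusted p = 0.605). Without the pair of libraries, 7 of the 10 genes fell, TFF3 among them (log2 difference -0.60, edgeR adjusted p = 0.0200), and SPDEF rose. Over all genes, 12.4% were then called.

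High against low dose of Soshiho-tang, 5 of the 10 genes fell (6.29% of all genes tested were called, 3.03% lower). Beside ATOH1, BCAS1 fell 1.85-fold (log2 difference -0.89 ± 0.07, edgeR adjusted p = 2.07e-13). SYTL2 had the same log2 difference, -0.89 ± 0.16 (edgeR adjusted p = 0.000127). FCGBP fell 1.86-fold, from 16.7 and 19.4 CPM to 11.9 and 7.70 CPM (edgeR adjusted p = 0.0218), and CREB3L1 fell 1.62-fold (edgeR adjusted p = 0.00304). Those 2 calls rest on single libraries: without high-dose replicate 3 the adjusted p was 0.471 for FCGBP and 0.292 for CREB3L1, and without low-dose replicate 2 it was 0.0563 and 0.0534. FCGBP was also not called without low-dose replicate 3 (adjusted p = 0.212). Without the pair of libraries that stand apart, 6 genes fell (ATOH1, BCAS1, SYTL2, TFF3, FCGBP and AGR2), SPDEF rose with a log2 difference of 0.38, and CREB3L1 was not called (adjusted p = 0.0627). Of all genes tested, 7.84% were then called.

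At the medium and low doses of Soshiho-tang, 0 of the 10 genes were called against the vehicle by edgeR and 0 by DESeq2, where 0.237% and 0.101% of all genes were called by edgeR. At an unadjusted p under 0.05 there were 2 and 1 of the 10, against 5.67% and 6.55% of all genes. Without the pair of libraries that stand apart, AGR2 and REG4 fell at both doses, with 1.7% of all genes called for medium and 1.88% for low.

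**Figure D2:**
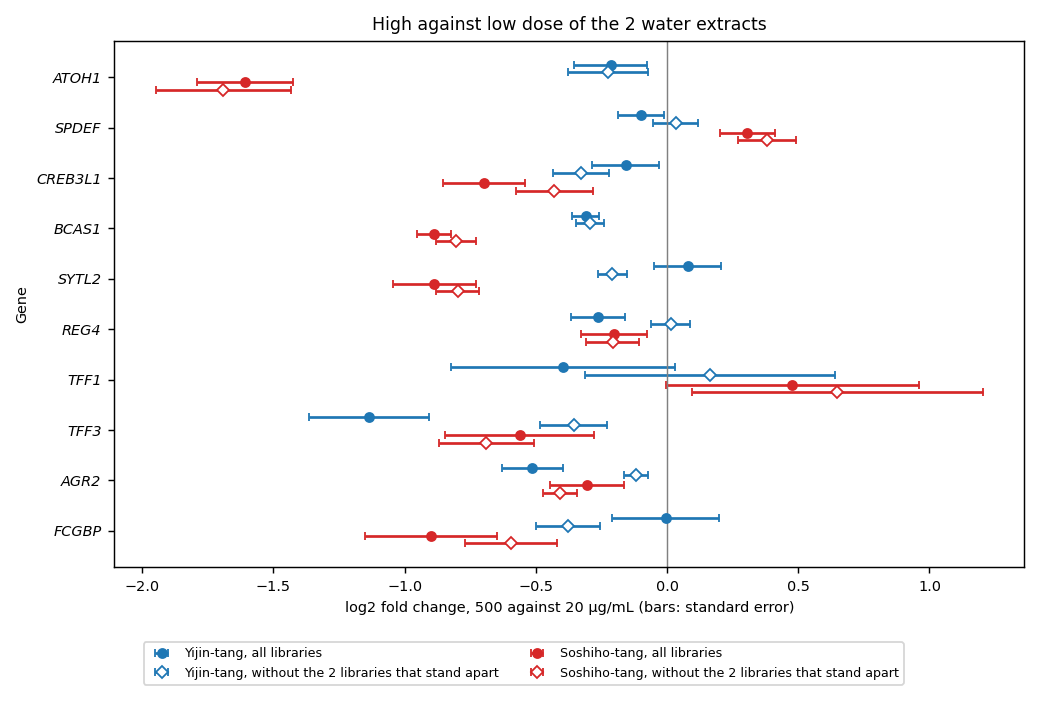
Log2 fold change of the high against the low dose (500 against 20 µg/mL) with its standard error, for Yijin-tang and Soshiho-tang, with all libraries (filled) and without the pair that stands apart (open). ATOH1 lies at -1.61 with Soshiho-tang and at -0.22 with Yijin-tang.

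Yijin-tang, the other water extract of the same library set, moved fewer of the genes. At its high dose BCAS1 was at 54.3, 51.0 and 53.98 CPM, all below the vehicle, and fell 1.31-fold (log2 difference -0.39 ± 0.05, edgeR adjusted p = 4.17e-06). It was the only one of the 10 genes called (1.05% of all genes tested). Without the pair of libraries that stand apart, 6 fell (BCAS1, AGR2, REG4, SYTL2, CREB3L1 and TFF3), with 7.16% of all genes called. At the medium dose edgeR called 0 of the 10 genes (0.42% of all genes), with 3 at an unadjusted p under 0.05 (7.84% of all genes), and DESeq2 called REG4. At the low dose TFF3 rose with a log2 difference of 0.78 ± 0.22 (edgeR adjusted p = 0.0207), where 12.1% of all genes were called. The libraries were at 4.51, 13.7 and 3.95 CPM, so the rise rests on replicate 2: without it the log2 difference was -0.0046.

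High against low dose of Yijin-tang, BCAS1, AGR2 and TFF3 fell, but only BCAS1 did so without the pair of libraries that stand apart. BCAS1 fell with a log2 difference of -0.31 ± 0.05 (edgeR adjusted p = 0.000686) and of -0.29 (0.00183) without them. The share of all genes called was 21.0% with and 0.652% without them.

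At the high dose, set side by side within their library set, the extracts differed in 5 genes (3.72% of all genes tested were called). ATOH1 was at 3.88, 4.37 and 2.86 CPM with Yijin-tang, above both Soshiho-tang libraries, a log2 difference of 1.31 ± 0.18 (edgeR adjusted p = 1.30e-06). SYTL2 (0.69 ± 0.15, 0.00191) and BCAS1 (0.57 ± 0.06, 8.20e-09) were also higher with Yijin-tang by edgeR, as was CREB3L1 (0.50 ± 0.14, 0.0381). SPDEF was lower (-0.35 ± 0.10, edgeR adjusted p = 0.0267). The CREB3L1 difference shrank to 0.24 with an adjusted p of 0.414 without the pair of libraries that stand apart, and SYTL2 had an adjusted p of 0.121 without high-dose Soshiho-tang replicate 3. Without that pair, ATOH1, SYTL2, BCAS1 and AGR2 were higher and SPDEF lower with Yijin-tang, and 4.93% of all genes were called. SPDEF was not called in 4 of the 5 fits that each left out one library.

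The test of the difference between the extracts' dose effects called ATOH1, SYTL2 and BCAS1 (4.38% of all genes tested were called). ATOH1 differed by 1.39 ± 0.23 (edgeR adjusted p = 0.000162), that is, the decrease from low to high dose was larger with Soshiho-tang. SYTL2 differed by 0.96 ± 0.20 (edgeR adjusted p = 0.00371) and BCAS1 by 0.58 ± 0.08 (edgeR adjusted p = 1.68e-05). Without the pair of libraries these were 1.46, 0.59 and 0.51, each still called beside AGR2 (1.88% of all genes called); without Soshiho-tang high replicate 3 alone, SYTL2 had an adjusted p of 0.0658. With only the compared groups fitted, all 3 calls ended: the differences were 1.40, 0.97 and 0.57, with edgeR adjusted p of 0.712, 0.840 and 0.840.

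Among the ethanol extracts with replicates, and with all libraries fitted, Schisandrae Fructus was the one for which edgeR called any of the 10 genes. REG4 was at 15.5, 14.6 and 16.4 CPM at the high dose, below all vehicle libraries, and fell 1.57-fold (log2 difference -0.65 ± 0.10, edgeR adjusted p = 0.000177; 0.693% of all genes called). At the medium dose the libraries were at 18.5, 17.2 and 15.6 CPM, and REG4 fell 1.43-fold (-0.51 ± 0.10, edgeR adjusted p = 0.00712; 0.474% of all genes called). The medium-dose call was lost without vehicle replicate 3 (0.135) or medium-dose replicate 3 (0.0978). At the low dose, with 19.5, 19.3 and 19.2 CPM, edgeR called 0 of the 10 genes (0.16% of all genes), with 2 at an unadjusted p under 0.05 (8.41% of all genes) and 0 by DESeq2.

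Within the Schisandrae Fructus set the high against the low dose had 0 of 10 genes called by edgeR and 0 by DESeq2 (0.189% of all genes), with 4 at an unadjusted p under 0.05 (3.21% of all genes). With only the compared groups fitted, AGR2 (log2 difference -0.25, edgeR adjusted p = 0.00367) and REG4 (-0.32, 0.0235) fell. No share of all genes is given for that fit. Without the pair of libraries that stand apart, the log2 differences of AGR2 and REG4 were -0.25 and -0.31. ATOH1 was at 2.91, 3.40 and 3.15 CPM at the high dose and 4.91, 4.77 and 3.91 CPM at the low dose, groups that do not overlap, with a log2 difference of -0.54 ± 0.14 (edgeR adjusted p = 0.116). At the high dose AGR2 stood at 155, 150 and 154 CPM against the vehicle, with a log2 difference of -0.44 ± 0.12 (edgeR adjusted p = 0.0594). AGR2 was called in 5 other settings: by DESeq2 (0.0216), with no filter on low counts (0.0156), with only the compared groups fitted (0.00953), without vehicle replicate 1 (0.0453) and without the pair of libraries that stand apart (8.83e-10).

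For Liriopis seu Ophiopogonis Tuber, Longan Arillus and Zizyphi Semen, edgeR called 0 of the 10 genes against the vehicle at each of the 3 doses. From high to low dose, the share of all genes called was 0.45%, 0.373% and 0.491% for Liriopis seu Ophiopogonis Tuber, 0.0829%, 0.0118% and 0.107% for Longan Arillus, and 0.16%, 0.0296% and 0.0355% for Zizyphi Semen. In the same order, 3, 1 and 4, then 2, 2 and 1, then 3, 1 and 1 of the 10 genes had an unadjusted p under 0.05. At that threshold the shares of all genes were 8.27%, 9.6% and 9.46%, then 5.93%, 4.66% and 7.6%, then 6.86%, 4.9% and 4.65%. DESeq2 called 0 except BCAS1 with high-dose Zizyphi Semen. High against low dose, edgeR called 0 of the 10 genes for each of these extracts, with 0, 1 and 1 at an unadjusted p under 0.05 (1.9%, 4.46% and 2.72% of all genes). The share of all genes called was 0.0% for Liriopis seu Ophiopogonis Tuber, 0.0178% for Longan Arillus and 0.0533% for Zizyphi Semen, and DESeq2 called BCAS1 for Zizyphi Semen and none for the others. Liriopis seu Ophiopogonis Tuber against Schisandrae Fructus had 0 of the 10 genes called at the high dose (0.0947% of all genes) and 0 in the test of their dose effects (0.00592%), with 3 in each at an unadjusted p under 0.05 (3.11% and 1.91% of all genes). Longan Arillus against Zizyphi Semen also had 0 in both (0.0237% and 0.0%), with 1 in each at an unadjusted p under 0.05 (2.66% and 2.67% of all genes), and DESeq2 called 0 in these 4 comparisons.

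REG4 and AGR2 were low in most extract libraries whatever the extract. Of 57 extract libraries, 55 lay below the vehicle's range for REG4 and 53 for AGR2, with 1 above for each, the Yijin-tang low replicate 2 library. The share of all genes with as many extract libraries outside the vehicle's range was not counted, so these counts are descriptions. REG4 was below 0 in 18 of 18 comparisons with the vehicle and fell in 3, and AGR2 was below 0 in 17 and fell in 1. Without the pair of libraries that stand apart, REG4 fell in 14 and AGR2 in 17 of the 18, where between 0.773% and 12.4% of all genes were called. That fit has a smaller shared spread, with a biological coefficient of variation of 4.76% against 9.71% with all libraries. AGR2 with high-dose Schisandrae Fructus had a log2 difference of -0.44 in both fits. All extract libraries are in other sets than the vehicle, so set and treatment cannot be told apart here. By contrast, 24 of 57 extract libraries lay above the vehicle's range for ATOH1 and 8 below.

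**Figure D3:**
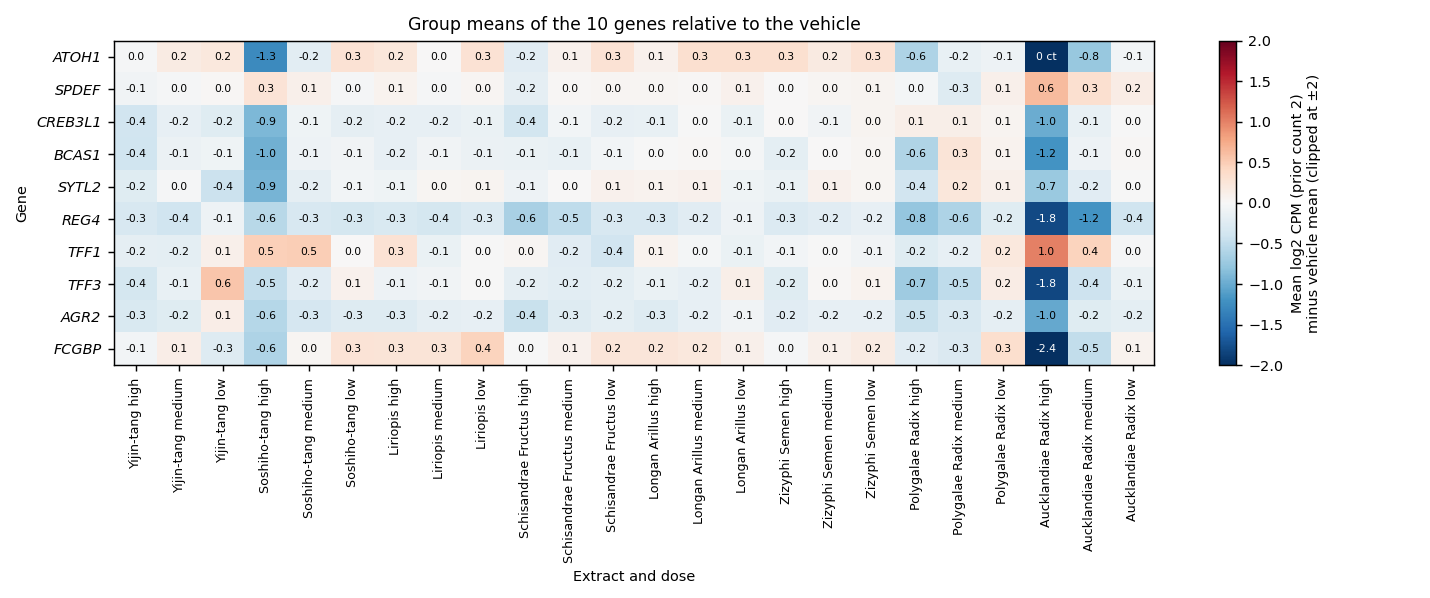
Mean log2 CPM (prior count 2) of each gene in each extract group minus the vehicle mean, with colours clipped at ±2; ATOH1 in high-dose Aucklandiae Radix is marked as 0 counts. High-dose Soshiho-tang and high-dose Aucklandiae Radix are the columns with the most low values, and SPDEF and TFF1 are above 0 in both.

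Aucklandiae Radix and Polygalae Radix had 1 library per dose, so no test was made and values are given with counting error only. High-dose Aucklandiae Radix (370 µg/mL) gave 0 counts of ATOH1, against a vehicle mean of 3.73 ± 0.616 CPM (SD, n = 3). With a floor of 3 counts, or 0.127 CPM, ATOH1 was at least 29.3-fold lower. Of the 9 genes with at least 1 CPM in the vehicle, 7 were at least 2-fold lower (ATOH1, CREB3L1, BCAS1, REG4, TFF3, AGR2 and FCGBP) and 0 at least 2-fold higher; of 13222 genes with at least 1 CPM in the vehicle, 8.46% were at least 2-fold lower and 6.25% higher. This library also held the highest sums of 4 endothelium markers, at 9.21 CPM against at most 2.47 CPM elsewhere, and of 6 fibroblast markers, at 4.12 CPM against at most 3.29 CPM elsewhere. PECAM1 made up 8.83 CPM of the endothelium sum, and VWF, CDH5 and KDR were under 1 CPM in every library. The part of these in the result was not tested.

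FCGBP was at 2.72 CPM (95% exact Poisson interval 2.09 to 3.47), 5.58-fold below the vehicle mean of 15.2 CPM. TFF3, at 1.15 CPM, was 3.70-fold lower, and REG4, at 6.88 CPM, was 3.54-fold lower. BCAS1 stood at 30.3 CPM, AGR2 at 102 CPM, CREB3L1 at 99.8 CPM and SYTL2 at 25.6 CPM, all below the vehicle's range. SPDEF, at 50.2 CPM, was the highest of all 60 libraries, 1.55-fold above the vehicle, and TFF1 with 25 counts, at 1.06 CPM, was also its highest. SPDEF and ATOH1 thus lay on opposite sides of the vehicle in this library.

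At the medium dose of Aucklandiae Radix (74 µg/mL) REG4, at 10.6 CPM, was 2.29-fold lower, the only one of the 9 genes at least 2-fold lower (0.597% of all genes). ATOH1 was at 2.15 CPM and SPDEF at 40.6 CPM. At the low dose (14.8 µg/mL) ATOH1 was at 3.56 CPM, SPDEF at 36.0 CPM and REG4 at 18.3 CPM. Each of these 3 genes was thus ordered by dose in the single libraries, as were the other genes described here. SPDEF and TFF1 went upward and the others downward. The share of all genes ordered by dose was not counted. Polygalae Radix at its high dose (380 µg/mL) had 0 of the 9 genes at least 2-fold lower (1.48% of all genes). ATOH1 was then at 2.37 CPM and REG4 at 14.2 CPM. At its medium dose BCAS1, at 83.0 CPM, and SYTL2, at 50.2 CPM, were at their highest of 60 libraries, while SPDEF, at 26.9 CPM, was at its lowest.

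**Figure D4:**
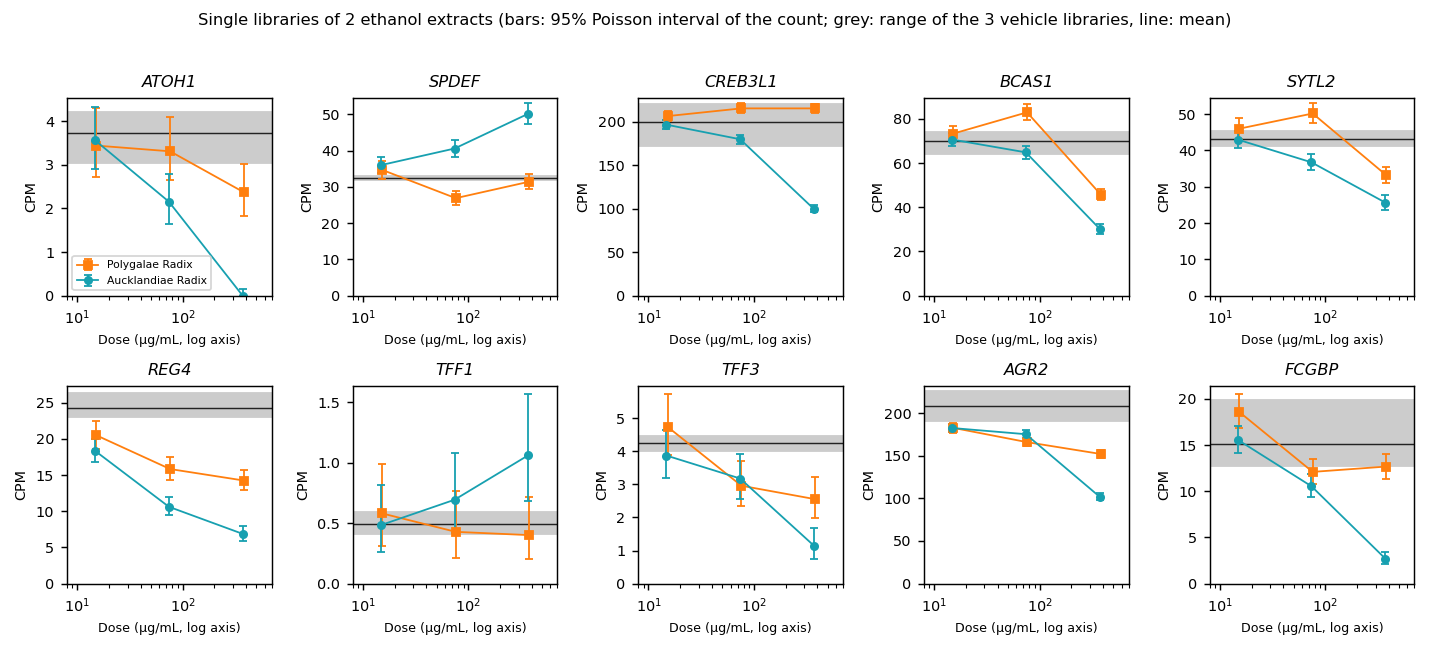
CPM of the 10 genes in the 1 library per dose of Polygalae Radix and Aucklandiae Radix, with exact Poisson intervals, against the vehicle libraries. The dose is on a log axis and CPM on a linear axis. The high dose of Aucklandiae Radix is at 0 counts for ATOH1 and above the vehicle for SPDEF and TFF1.

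The Notch pathway sits upstream of ATOH1. With high-dose Soshiho-tang against the vehicle, 2 of 25 tested Notch pathway genes fell and none rose, with a median log2 difference of -0.08. As above, 3.76% of all genes tested were called lower and 4.17% higher in this comparison, and the counts of the lists below are to be read against these shares. DLL1, a Notch ligand made by secretory cells, fell from 1.11 to 0.441 CPM (edgeR adjusted p = 0.00252), and DLL4, another ligand of that kind, from 5.26 to 2.32 CPM (edgeR adjusted p = 1.38e-07). High against low dose, DLL1, DLL4 and LFNG, a glycosyltransferase that modifies Notch, fell. In the single high-dose Aucklandiae Radix library DLL1 was at 0.0849 CPM and DLL4 at 0.594 CPM, while the ligand JAG1 was at 98.3 CPM against 26.1 CPM in the vehicle. The 28 Notch pathway genes summed to 1400 CPM there, the highest of any library, against 1196 to 1260 CPM in the vehicle. Of genes with at least 1 CPM in the vehicle, 14.7% differed at least 2-fold in that library. The part of Notch signalling in the ATOH1 level was not tested.

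Of 12 other regulators of the secretory lineage, 4 fell and 1 rose with high-dose Soshiho-tang by edgeR. SOX4 fell from 192 to 120.002 CPM (adjusted p = 0.00122), FOXA2, a factor of goblet cell differentiation, from 16.1 to 10.5 CPM (0.000292) and ERN2, a sensor of unfolded proteins in goblet cells, from 18.6 to 14.4 CPM (0.0224). KLF4, a factor needed for goblet cells in the colon, rose from 8.19 to 10.6 CPM (0.0488). Of 9 other goblet cell products tested, ST6GALNAC1, a mucin sialyltransferase, fell from 2.84 to 1.37 CPM (edgeR adjusted p = 0.000607), and without the pair of libraries that stand apart 5 of 9 fell (12.4% of all genes called). Of 10 mucins 2 fell, MUC13 (105 to 77.6 CPM, edgeR adjusted p = 0.00181) and MUC3A (33.4 to 20.9 CPM, 0.0182), and the MUC3A call was lost without that pair (0.0830).

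MUC2, the gel-forming mucin of goblet cells, averaged 13.6 CPM with high-dose Soshiho-tang and 23.6 CPM in the vehicle, with overlapping libraries. The sum of the 10 mucins did not fall in both high-dose Soshiho-tang libraries. It was 550 CPM in replicate 2, the highest of any library, and 296 CPM in replicate 3, the library that stands apart. In the vehicle it was 366 to 546 CPM. Of 5 absorptive markers tested, KRT20 (240.03 to 301 CPM, edgeR adjusted p = 2.64e-05) and CEACAM7 (0.341 to 0.949 CPM, 0.000388) rose, and CA2, a carbonic anhydrase, fell. The blood markers LAPTM5 and CD74 rose in this comparison by edgeR (adjusted p = 0.000209 and 0.0324), but without the library that stands apart LAPTM5 had a log2 difference of -0.44 and CD74 of -0.70. These lists were chosen with earlier results of the data known, so their counts are descriptions.

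Over the 25 groups, the group means of the genes were compared with those of 9181 other genes as a description, with no p. These means share the cell line and the normalization, and 6 rest on 1 library. KCNJ3, which encodes a potassium channel subunit, was among the closest to ATOH1 (Pearson r = 0.987, and 0.806 over the 23 groups without high-dose Aucklandiae Radix and Soshiho-tang). For REG4, WNT11 was most like it (0.935, then 0.848) and FOXA2 was among its closest (0.907, then 0.881). TSPAN8 was most like TFF3 (0.964, then 0.891) and ZFTA most like FCGBP (0.976, then 0.898). Among the genes themselves, ATOH1 and FCGBP had r = 0.956, but 0.657 without those groups. TFF3 and AGR2 had 0.917 (0.790 without), BCAS1 and SYTL2 0.898 (0.728 without), and ATOH1 and SPDEF -0.764 (-0.145 without), so the last rests on those groups.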

How the data were processed

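Polyadenylated RNA of HT29 cells was sequenced from strand-specific libraries, per the labels. The deposited values are RSEM expected counts per Ensembl gene, made by the authors with RSEM 1.3.3 on GRCh38; the submitters' processing notes also name STAR 2.7.3a, Trim Galore 0.6.5 and FastQC 0.11.9. Of all values, 89.9% were whole within 1e-09, and all were rounded. Symbols were found for 56558 of 60675 identifiers, with positions from GENCODE v29 (GRCh38). CPM used TMM factors.

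edgeR 4.0.16 (R 4.3.3) fitted 1 quasi-likelihood model over the 54 libraries of the 19 groups with replicates, after its expression filter (16890 genes), with Benjamini-Hochberg adjustment over all genes and a threshold of 0.05 (biological coefficient of variation 9.71%). All 10 genes could be named in any of the 30 comparisons, and the text names those on which each turns. Other listed genes in tested comparisons are named by size of change among those called, up to 4 per list. MUC2, genes given for their level and listed genes in single libraries are named outside this rule, as descriptions. The most alike genes are named by correlation. Alternatives were DESeq2 1.42.0, another size factor, no filter, only the compared groups, the replicate block, each library left out and the pair of libraries left out. Without the pair, the biological coefficient of variation was 4.76%. Each edgeR standard error is the size of the log2 difference divided by the square root of the test's F statistic. The genes, lists and tests were chosen with earlier results of these data known. The scripts' tests were checked on simulated data. The totals set counting precision, and intervals cover counting error only. In no comparison of 3 replicate numbers did all pairs correlate above 0.1, so numbers were not taken as pairs. Wortmannin samples were not analysed here. The DMSO percentage of the vehicle differs between the labels and the series text. One gene named by the likeness rule is not reported here.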

Additional observations from a re-analysis of the deposited data

Results flagged for a closer look

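The effect of dose (high minus low) differed between Yijin-tang and Soshiho-tang for 3 genes by edgeR's test of the difference itself, and each is higher with Yijin-tang. ATOH1 differed by 1.39 ± 0.23 on the log2 scale (edgeR adjusted p = 0.000162). SYTL2 differed by 0.96 ± 0.20 (edgeR adjusted p = 0.00371), and BCAS1 by 0.58 ± 0.08 (edgeR adjusted p = 1.68e-05). The blood marker sum of Soshiho-tang high replicate 3 was 36.7 CPM and the ribosomal protein share of Yijin-tang low replicate 2 was 10.7%; without both libraries the differences were 1.46, 0.59 and 0.51, and with only the compared groups fitted the 3 calls ended (adjusted p = 0.712, 0.840 and 0.840). The part of these measures in the result was not tested.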

How the results depend on the processing

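Values are counts of the 10 genes called; where none is given, the count stayed within 1.5 times. Without the 2 libraries that stand apart, comparisons with the vehicle called, at high, medium and low dose, 6, 2 and 2 for Yijin-tang, 2 and 2 for medium and low Soshiho-tang, 3, 2 and 3 for Liriopis seu Ophiopogonis Tuber, 3, 2 and 2 for Schisandrae Fructus, 2 and 1 for high and medium Longan Arillus, and 3, 1 and 1 for Zizyphi Semen. High against low then gave 1 for Yijin-tang, 2 for Schisandrae Fructus, 3 for Longan Arillus and 1 for Zizyphi Semen, Liriopis seu Ophiopogonis Tuber against Schisandrae Fructus gave 2 at the high dose, and Longan Arillus against Zizyphi Semen gave 2 for high minus low; a lone Soshiho-tang high library is there assumed to vary like the other groups. With only the compared groups fitted, fewer samples enter: against the vehicle Yijin-tang medium gave 1 and low 0, Schisandrae Fructus high 2 and medium 0; high against low gave 0 for Yijin-tang, 3 for Soshiho-tang, 2 for Schisandrae Fructus and 1 for Zizyphi Semen; Yijin-tang against Soshiho-tang gave 3 at the high dose and 0 for high minus low. DESeq2 gave 1 for Yijin-tang medium (117 called among all genes) and 2 for Schisandrae Fructus high (218). It gave 1 for Zizyphi Semen high (55) and 1 for its high against low (12). With no filter Yijin-tang low and Schisandrae Fructus high gave 2 each. For no filter, only the compared groups and 1 library left out, no share of all genes is given. Those counts are descriptions. Leaving out 1 library gave 0 to 4 for Yijin-tang low, 1 to 2 and 0 to 1 for Schisandrae Fructus high and medium, 0 to 1 for Zizyphi Semen high, 1 to 4 and 3 to 5 for high against low of Yijin-tang and Soshiho-tang, 2 to 4 for the extracts at the high dose and 2 to 7 for high minus low. The one reversal was TFF3 with low-dose Yijin-tang: -0.0045 without the 2 libraries, and -0.0046 to 1.08 leaving out 1 library. The replicate block changed none of the 26 gene results; it gave 7 genes for high-dose Soshiho-tang against the vehicle, and same-numbered libraries of its high and low dose correlated at 0.0164. The causes were not tested. Medians of 96.5 counts for ATOH1 and 12 for TFF1 limit their precision.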

Other observations

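Markers of other cell types of the intestinal epithelium differed widely in level. The 5 enteroendocrine markers (CHGA, CHGB, NEUROD1, PYY and GCG) summed to at most 0.291 CPM in any library. Of the 5 Paneth cell markers, the defensin DEFA5 and the lectin REG3A were at 0 in all libraries, and DEFA6 and PLA2G2A stayed under 1 CPM. LYZ, which encodes lysozyme, was in contrast at 1459 to 1542 CPM in the vehicle and at 1059.5 CPM in the single high-dose Aucklandiae Radix library. The sum of the 5 Paneth cell markers ran from 957 to 2014 CPM over all libraries. At 1060 CPM, the high-dose Aucklandiae Radix library was not the lowest. The tuft cell markers summed to 1.80 to 2.61 CPM in the vehicle. The 10 absorptive markers summed to 239 to 263 CPM in the vehicle and to 721 CPM in the high-dose Aucklandiae Radix library, the library with 0 counts of ATOH1. Nearly all of that sum was KRT20, at 240.03 CPM in the vehicle and 716 CPM in that library, while CA2 was at 12.2 and 4.58 CPM and 7 of the 10 markers stayed under 1 CPM in every library.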
